A study of Mus musculus with 48 samples.

Results

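The genes that encode the general transcription factors of RNA polymerase II and the TBP-associated factors (TAFs) were followed at the level of newly made RNA in mouse embryonic stem cells. They were the rows of the deposited count matrix named Gtf2 with a letter a, b, e, f or h, the rows named Taf with a number from 2 to 15 and an optional b or l, and Tbp, Taf1 and Ercc3. This name rule gave 33 of 55376 gene rows. By complex, 14 rows encode subunits of TFIID, 6 of TFIIH, 2 each of TFIIA, TFIIE and TFIIF and 1 TFIIB, and the other 6 encode TAF paralogs or TAF family proteins.

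Transcription by RNA polymerase II starts when TFIID, built from the TATA-binding protein TBP and the TAFs, assembles on a core promoter and TFIIA and TFIIB join it. TFIIF arrives with the polymerase, TFIIE brings in TFIIH, and the translocase of TFIIH, encoded by Ercc3, opens the DNA. Several TAFs, among them TAF10 and TAF12, are also subunits of the SAGA coactivator, and TAF5L and TAF6L belong to SAGA in place of TAF5 and TAF6.

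Nascent RNA came from 8 libraries of the embryonic stem cell line TCF2.2, derived and grown in serum-free 2i medium and labelled as strain C57BL/6. New transcripts were tagged during 5 min with 500 µM 4-thiouridine, biotinylated and pulled down, and synthetic ERCC RNA had been added in proportion to cell number. Each of 4 groups had 2 libraries, which the series describes as biological duplicates. The first pair of groups received 10 µM BRM014, which blocks the ATPases BRG1 and BRM of SWI/SNF remodellers, or DMSO, each over 3 h. The second pair was transduced with lentivirus carrying either a Chd4 shRNA or a scrambled shRNA. Both shRNA groups then spent 24 h in 1.5 µg/mL puromycin, so these comparisons also differ in vehicle, virus, selection and time. CHD4 is the ATPase of the NuRD remodelling complex, and the design asks how the loss of either remodeller changes transcription. All groups are the same line, and the sources do not name the shRNA sequences.

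Total gene counts ranged from 6982354 to 17128981 per library, of which 6377 to 16449 fell on the 33 rows. Nascent RNA of Chd4 was higher, not lower, in the libraries labelled Chd4 shRNA. Its log2 fold change was 0.57 ± 0.16 (SE, 2 libraries against 2, edgeR quasi-likelihood test, Benjamini-Hochberg adjusted p = 0.00532). Smarca4, which encodes BRG1 and is not the target, had 0.59 ± 0.16 in the same comparison (adjusted p = 0.00536). Mature Chd4 mRNA and CHD4 protein were not measured here, so the nascent value does not test the knockdown. With BRM014, which inhibits the BRG1 protein, Smarca4 had a log2 fold change of 0.13. Background, read from 1434 olfactory and vomeronasal receptor genes, was 6.78 and 7.21 counts per kb of exon in the libraries labelled Chd4 shRNA and 1.32 to 2.66 in the other 6. All 8 markers of embryonic stem cells were counted in every library, and their summed level was 1771 and 1833 CPM (counts relative to library size, scaled by TMM) in the libraries labelled Chd4 shRNA against 2724 to 3288 in the other 6. Dppa5a had the most counts of the 8 in each library and so weighs most in the sums, with 8197 in Chd4 shRNA r1 where Pou5f1 had 956. Of the 8, 6 were called lower in the libraries labelled Chd4 shRNA at an adjusted p under 0.05, against 20.5% of all genes fitted. Nanog had a log2 fold change of -1.56, and Esrrb and Tfcp2l1, which were not called, had -0.36 and -0.35. The 15 markers of endoderm, primed lineages, trophoblast and fibroblasts summed to 127 and 138 in those libraries and to 26.8 to 39.6 in the other 6. The receptor background alone predicts sums of 85.4 and 91.9 in the former and 10.4 to 16.4 in the latter. Only 2 of the 15 were fitted. Krt18 was called higher in the libraries labelled Chd4 shRNA (log2 fold change 1.64 ± 0.19, edgeR adjusted p = 9.15e-07), and Krt8 was not called (0.22). None of the 15 was at 0, and the part of these shifts in the results below was not tested. The marker sums and calls are relative to library size, and marker values on an ERCC scale are not given here. With plain ERCC sums as library sizes, the median expressed gene was itself at a log2 fold change of 0.59 in the Chd4 shRNA comparison. The lower marker values are thus not shown to be lower per cell. In pooled cells, fewer cells of a kind and less RNA per cell cannot be told apart.

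Because of this background, the test was run on the 8272 genes whose mean count was at least 10-fold above it, and 20 of the 33 genes passed. Another 11, at 3-fold to 10-fold, were read from a wider fit of 17664 genes with the same library sizes. These are Gtf2a1, Gtf2h3, Taf1, Taf2, Taf3, Taf4, Taf4b, Taf6l, Taf11, Taf12 and Tbp, and Tbp at 9.92-fold and Gtf2e1 at 10.5-fold lie on either side of the line. Taf7l and Taf9b, at 1.92-fold and 2.7-fold, were left out of both fits. In the libraries labelled Chd4 shRNA, the background makes up between 2.16% (Taf5) and 36.7% (Taf13) of the counts of the 20, and between 21.1% (Taf1) and 46.9% (Gtf2h3) of those of the 11. It makes up at most 9.15% for the 20 in the other 6 libraries. All levels below are CPM scaled by TMM over the 8272 genes, and a fold change is therefore relative to the typical expressed gene.

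Promoters of 4 genes are shown because these genes moved furthest, in either direction, in the libraries labelled Chd4 shRNA among those of the 20 genes at least 10-fold above background that have a RefSeq promoter entry. Each runs from 250 bases before to 50 bases after the RefSeq start, 5′ to 3′ on the strand of the gene, in GRCm38.p6 (mm10). Taf15 lies at chr11:83472858-83473157 on the plus strand, Taf5 at chr19:47067498-47067797 on the plus strand, Taf9 at chr13:100651357-100651656 on the plus strand and Gtf2f2 at chr14:76010816-76011115 on the minus strand. Capitals mark matches on either strand to 6 short motifs: TATAAA, CCGGAAGT (an ETS site), AAGATGGCG (a YY1 site), GCATGCGC (an NRF1 site), ATTGG (an NF-Y site) and GGGCGG, known as the GC box.
Taf15: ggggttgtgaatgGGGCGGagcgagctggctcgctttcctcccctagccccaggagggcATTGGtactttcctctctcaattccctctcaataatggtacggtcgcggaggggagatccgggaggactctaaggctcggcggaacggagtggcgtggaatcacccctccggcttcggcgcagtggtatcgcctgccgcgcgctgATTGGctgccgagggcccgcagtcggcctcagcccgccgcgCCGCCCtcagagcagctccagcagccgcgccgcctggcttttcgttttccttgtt
Taf5: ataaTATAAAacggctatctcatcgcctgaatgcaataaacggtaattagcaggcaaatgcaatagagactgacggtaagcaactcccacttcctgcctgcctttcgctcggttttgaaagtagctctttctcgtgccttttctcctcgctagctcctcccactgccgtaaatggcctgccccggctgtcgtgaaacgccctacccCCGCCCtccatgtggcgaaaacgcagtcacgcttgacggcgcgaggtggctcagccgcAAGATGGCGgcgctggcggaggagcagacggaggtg
Taf9: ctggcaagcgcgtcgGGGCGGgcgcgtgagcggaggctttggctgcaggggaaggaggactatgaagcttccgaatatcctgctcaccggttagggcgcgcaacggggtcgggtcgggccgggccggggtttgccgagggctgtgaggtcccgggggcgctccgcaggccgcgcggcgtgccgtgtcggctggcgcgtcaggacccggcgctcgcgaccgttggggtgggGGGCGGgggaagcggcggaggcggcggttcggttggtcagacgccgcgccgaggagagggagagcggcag
Gtf2f2: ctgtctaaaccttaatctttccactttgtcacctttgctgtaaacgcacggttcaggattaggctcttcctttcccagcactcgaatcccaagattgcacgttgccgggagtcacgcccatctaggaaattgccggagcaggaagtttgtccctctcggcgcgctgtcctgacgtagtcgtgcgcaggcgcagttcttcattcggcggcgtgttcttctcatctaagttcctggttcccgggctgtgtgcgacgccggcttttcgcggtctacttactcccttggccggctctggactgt
In these windows Taf15 has GC boxes and NF-Y sites, Taf5 has a TATAAA at the far end, a GC box and, just after its start, the YY1 site, and Taf9 has GC boxes only. The Gtf2f2 window holds none of the 6 motifs. Their GC content is 65.7%, 56.3%, 74.7% and 55.7%.

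Of the 33 genes, 28 had a promoter entry, and Ercc3, Gtf2e2, Taf2, Taf4b and Taf7 had none. The median GC content of the 28 was 61.3%, against 55% for all 20696 promoters. GGGCGG was in 19 of the 28 (67.9%) and in 42.6% of all promoters, and the ETS site CCGGAAGT was in 7 (25%) and in 4.88%. AAGATGGCG was in Taf4, Taf5, Gtf2b and Gtf2e1 (14.3%) and in 1.77% of all, and TATAAA was in 5 (17.9%) and in 13.2%. ATTGG was in 8 (28.6%) and in 38.3% of all, and GCATGCGC was in 2 (7.14%) against 3.33%. The matches are letters in a window, matches of different motifs may overlap, and no binding was measured here.

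Per kb of exon, the genes of this machinery were unequally transcribed in the vehicle control. In the DMSO libraries Gtf2e2, the smaller subunit of TFIIE, had the highest level at 27.0 ± 0.01 scaled CPM per kb (SD, n = 2), followed by Taf5 at 24.4 ± 1.9 and Taf10 at 23.9 ± 2.3. Taf7l, a germ cell paralog of Taf7, was lowest at 0.320 ± 0.096. The median over the 33 genes was 4.55, against 7.22 for all expressed genes. Of the 32 pairs of neighbours in this order, 21 overlapped between their libraries.

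Subunits of 1 complex did not share a level. In TFIID, levels in DMSO ran from 24.4 for Taf5 to 0.840 ± 0.088 for Taf3, which encodes the TAF that reads methylated histone H3. TFIIE spanned 27.0 for Gtf2e2 to 2.65 for Gtf2e1, its larger subunit, and TFIIA spanned 9.10 for Gtf2a2 to 2.07 for Gtf2a1. In TFIIH, Gtf2h5 was at 20.4 and Gtf2h3 at 2.43, whereas both TFIIF genes were close, with Gtf2f2 at 18.2 and Gtf2f1 at 14.2. Gtf2b, the gene of TFIIB, stood at 4.79. Among the TAF relatives, levels ran from 11.1 for Taf15, a FET family RNA-binding protein, to the 0.320 of Taf7l. Gtf2e2 was also highest with BRM014, at 32.6, and Taf5 was highest in the scrambled libraries, at 28.3, and in those labelled Chd4 shRNA, at 52.0.

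**Figure D1:**
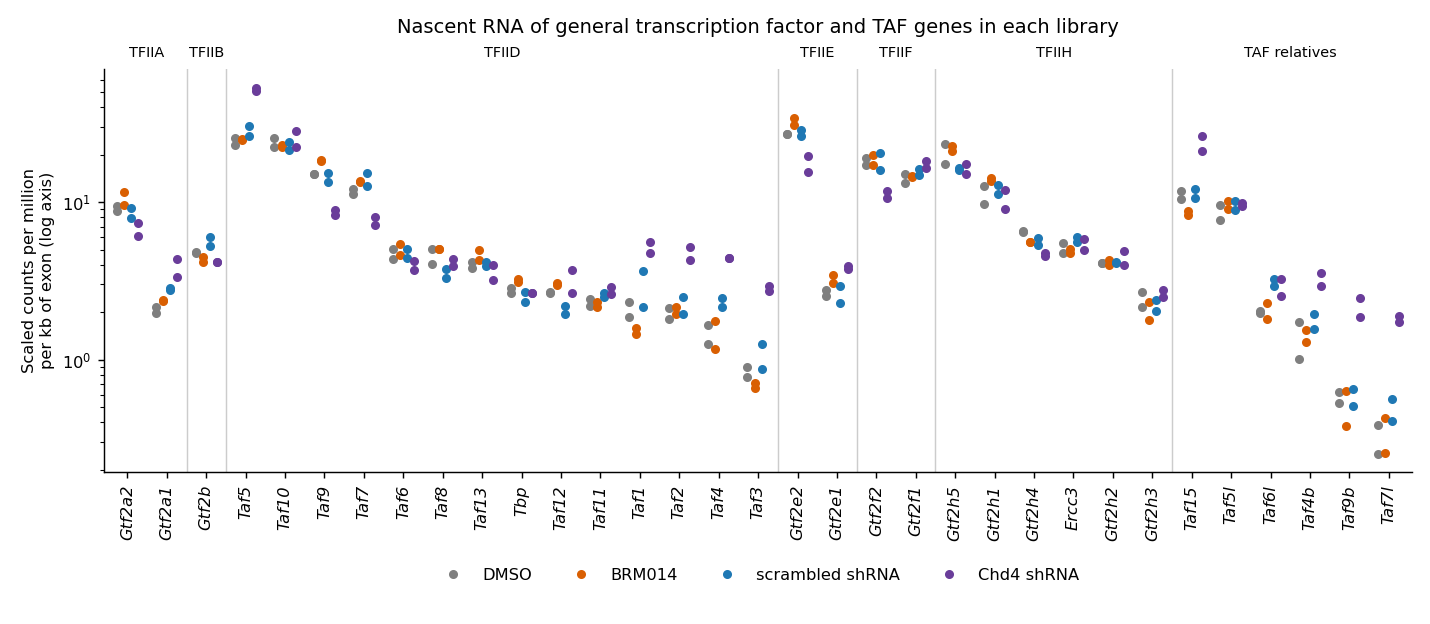
Level of each of the 33 genes in each of the 8 libraries, in TMM-scaled CPM per kb of exon on a log axis, grouped by complex. Points are single libraries coloured by group. On this scale the points labelled Chd4 shRNA stand above the others for Taf15 and Taf5, among other genes, and below them for genes such as Taf7, Taf9 and Gtf2e2. They also stand highest for Taf7l and Taf9b, which are close to background.

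BRM014 for 3 h left this set without a called gene. Of the 20 genes 0 were higher or lower at an adjusted p under 0.05, where 7.75% of all 8272 genes were called, and of the 11 genes in the wider fit 0 were called, where 6.36% of 17664 were. DESeq2 also called 0 of the 20, and 297 of the 8272 genes. At an unadjusted p under 0.05 there were 5 of the 31. The share of all genes at that threshold was not counted, so this number says nothing particular about the set. The log2 fold changes of the 20 ran from -0.38 to 0.32 with a median SE of 0.13 and a median of 0.09, against 0.01 for all genes. The libraries of both groups did not overlap for 10 of the 20, and for 48.5% of all genes.

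The largest differences with BRM014 were in TAF genes. Taf15 had 24.1 and 25.7 scaled CPM with BRM014 and 30.4 and 34.3 with DMSO. Taf1, the largest TFIID subunit, had 13.6 and 12.5 against 15.9 and 19.8. In both cases the treated libraries lay below both controls, with log2 fold changes of -0.38 ± 0.14 for Taf15 (adjusted p = 0.102) and -0.46 ± 0.18 for Taf1 (adjusted p = 0.121).

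Of the 20 genes 15 had a positive value, where the median of all genes was 0.01. Both BRM014 libraries were above both DMSO libraries for 7 of the 20 and below them for 3. Over all genes 48.5% did not overlap, and their share in each direction was not counted, so no tendency of the set is read from this. Gtf2h1, Taf9 and Gtf2e1 had the smallest p of the 7. Gtf2h1, which encodes a core subunit of TFIIH, had 42.5 and 40.8 against 28.9 and 37.5 (log2 fold change 0.32, adjusted p = 0.192). Taf9 had 38.7 and 39.2 against 32.0 and 31.8 (0.29, adjusted p = 0.174), and Gtf2e1 had 21.6 and 19.2 against 16.0 and 17.3 (0.29, adjusted p = 0.216). The Taf9 row lies inside Ak6 on the same strand, and Ak6 also had 0.29 with BRM014, so this value may not be particular to Taf9. Without DMSO r2, Gtf2h1 alone passed, at 0.52 with an adjusted p of 0.0141. The approximate intervals of 2 SE on either side reach from -0.66 to -0.10 for Taf15, from -0.81 to -0.11 for Taf1 and from 0.03 to 0.61 for Gtf2h1, so changes of about those sizes were not resolved with 2 libraries in a group.

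**Figure D2:**
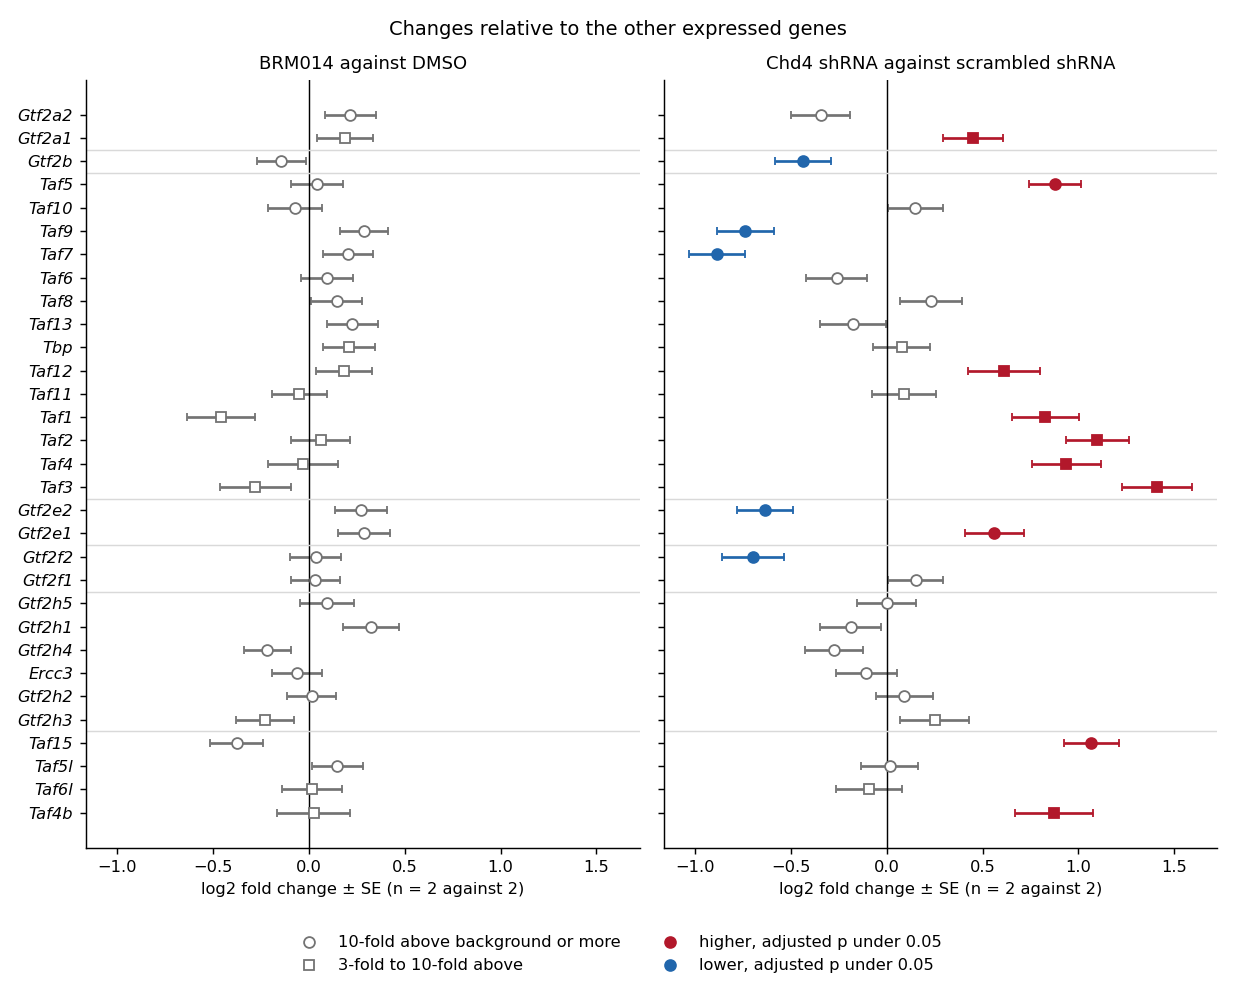
Log2 fold change with its SE for the 31 genes fitted, BRM014 against DMSO on the left and Chd4 shRNA against scrambled shRNA on the right, grouped by complex. Circles are genes at least 10-fold above background, squares those at 3-fold to 10-fold, and filled symbols passed an adjusted p under 0.05. No symbol is filled for BRM014, and on the right 10 are filled red and 5 blue, relative to the typical expressed gene. With plain ERCC sums as library sizes none of the blue ones stays called.

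In the libraries labelled Chd4 shRNA, TFIID genes changed in both directions relative to the typical expressed gene, though every lower call was lost with plain ERCC sums as library sizes. Taf15, Taf5 and Gtf2e1 were higher and Taf7, Taf9, Gtf2e2, Gtf2f2 and Gtf2b were lower, so 8 of the 20 genes were called, and 39.9% of all 8272 genes were. The 3 that were higher compare with 19.4% of all genes and the 5 that were lower with 20.5%. The share of called genes is thus near that of all expressed genes. Without scrambled r3, 5 of the 20 were called. The median log2 fold change of the 20 was -0.14, and that of all genes -0.01. Libraries did not overlap for 13 of the 20, and for 72.9% of all genes. Directions depend on the scale: with plain ERCC sums as library sizes 4 of the 20 were higher and 0 lower, where 34.3% of all genes were higher and 0.75% lower. With TMM-scaled ERCC totals 0 of the 20 and 0.762% of all genes were called. With no filter on low counts all 20 were lower, as were 22.1% of the 54064 genes then fitted. The median expressed gene was itself at -1.49 in that fit, and the median of the 20 at -1.63.

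In the wider fit 7 of 11 genes were higher, namely Taf3, Taf2, Taf4, Taf1, Taf4b, Taf12 and Gtf2a1, and 0 were lower. In this fit 50% of the 17664 genes were called, 39.9% higher and 10.1% lower, and their median log2 fold change was 0.46. After the expected background had been subtracted from each library, Taf1, Taf2, Taf3 and Taf4 remained higher, with 24.3% of the 17664 genes higher. Taf4b, Taf12 and Gtf2a1 were no longer called. DESeq2 called Taf2 and Taf3 of the 7, and Taf1, Taf4, Taf4b, Taf12 and Gtf2a1 missed its threshold, but its size factors over the 17664 genes placed the median expressed gene at -0.37.

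Between the shRNA groups Tbp, the subunit that binds the TATA box, differed by less than its error in the counts as deposited. It had 35.8 and 36.2 scaled CPM in the libraries labelled Chd4 shRNA, against 36.7 and 31.5 with the scrambled shRNA, 42.3 and 43.8 with BRM014 and 36.1 and 38.4 with DMSO. Both BRM014 libraries were above both DMSO libraries, with a log2 fold change of 0.21 ± 0.14 that was not called (edgeR adjusted p = 0.434). The shRNA libraries overlapped, with a log2 fold change of 0.08 ± 0.15 (adjusted p = 0.693). Its row has the longest exonic length of the set, 13.6 kb, and 41.5% and 44.1% of its counts in the libraries labelled Chd4 shRNA match the expected background. With that subtracted the log2 fold change was -0.38 ± 0.16 (adjusted p = 0.0699). The row also overlaps Pdcd2 on the opposite strand by 8094 bases, and the strand setting of the counts is not given in the sources used here.

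The TFIID genes that were higher were Taf5, Taf1, Taf2, Taf3, Taf4 and Taf12. Taf5, a scaffold subunit with WD40 repeats, had 165 and 174 scaled CPM in the libraries labelled Chd4 shRNA, against 85.1 and 99.4 with the scrambled shRNA (81.3 and 82.0 with BRM014, 83.7 and 75.1 with DMSO). The first 2 stood far above the other 6, and the log2 fold change was 0.88 ± 0.14 (adjusted p = 2.65e-05). Taf1 had 40.6 and 47.6 against 31.2 and 18.5 with the scrambled shRNA, which differed widely between themselves. The groups did not overlap, and the log2 fold change was 0.83 ± 0.17 (adjusted p = 0.000195) as deposited and 0.80 ± 0.21 (adjusted p = 0.00486) after subtraction. It was 1.28 without scrambled r1 and 0.50 without scrambled r3, with adjusted p of 1.59e-06 and 0.0314, and DESeq2 gave an adjusted p of 0.081.

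Taf2 encodes the subunit that contacts the initiator element. It had 29.6 and 35.9 scaled CPM in the libraries labelled Chd4 shRNA, against 17.2 and 13.4 with the scrambled shRNA, 15.0 and 13.3 with BRM014 and 12.4 and 14.5 with DMSO. The libraries labelled Chd4 shRNA were above all others, with a log2 fold change of 1.10 ± 0.16 (adjusted p = 1.18e-06), and 1.07 ± 0.19 after subtraction (adjusted p = 0.000188). Taf3 had the largest fold change of the set. It had 17.4 and 18.8 against 7.98 and 5.59 with the scrambled shRNA (4.24 and 4.57 with BRM014, 4.97 and 5.77 with DMSO), but 40.1% and 40.0% of the counts in the libraries labelled Chd4 shRNA match background. The log2 fold change was 1.41 ± 0.18 (adjusted p = 1.08e-07) and 1.18 ± 0.25 after subtraction (adjusted p = 0.000829).

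Taf4, which encodes a core subunit of TFIID, had 20.3 and 20.6 against 10.0 and 11.3 with the scrambled shRNA (8.15 and 5.37 with BRM014, 5.84 and 7.63 with DMSO). No other library reached the first 2, with a log2 fold change of 0.94 ± 0.18 (adjusted p = 5.53e-05), and 0.86 ± 0.23 after subtraction (adjusted p = 0.00475). DESeq2 gave an adjusted p of 0.0629 for it. Taf4b, its paralog, had 18.2 and 15.0 against 10.0 and 8.10 (7.99 and 6.63 with BRM014, 5.22 and 8.93 with DMSO), with a log2 fold change of 0.87 ± 0.20 (adjusted p = 0.000566) that fell to 0.64 (adjusted p = 0.0706) after subtraction. Taf12, a histone-fold partner of TAF4, had 10.6 and 15.0 against 7.86 and 8.90 (12.4 and 12.1 with BRM014, 10.8 and 10.7 with DMSO), a log2 fold change of 0.61 ± 0.19 (adjusted p = 0.00736) and of 0.34 after subtraction (adjusted p = 0.272). Without Chd4 shRNA r4 it was 0.34 with an adjusted p of 0.271.

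Both TFIID genes that were lower span few bases, 3.71 kb for Taf7 and 4.48 kb for Taf9. A short span was not particular to lower genes. Taf10 spans 4.97 kb and was not called, and Gtf2f2 and Gtf2e2, also lower, span 114 and 45.3 kb. Taf7, whose product binds TAF1 and restrains its acetyltransferase activity, had 23.7 and 26.6 scaled CPM in the libraries labelled Chd4 shRNA, against 42.1 and 50.8 with the scrambled shRNA (44.8 and 44.0 with BRM014, 37.0 and 40.1 with DMSO). The first 2 were below all 6 others. The log2 fold change was -0.89 ± 0.15 (adjusted p = 5.5e-05) and -0.86 ± 0.16 after subtraction (adjusted p = 0.000157). With plain ERCC sums as library sizes the call was lost (adjusted p = 0.549).

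Taf9 encodes the histone-fold partner of TAF6. It had 19.0 and 17.4 against 28.3 and 32.5 with the scrambled shRNA (38.7 and 39.2 with BRM014, 32.0 and 31.8 with DMSO), again the lowest 2 of 8 libraries. The log2 fold change was -0.74 ± 0.15 (adjusted p = 0.000413). The Taf9 values in both comparisons, and their difference, are uncertain, because its row of 4482 bases lies wholly inside Ak6 on the same strand. Ak6 had a log2 fold change of -0.44 ± 0.15 with the Chd4 shRNA and of 0.29 with BRM014.

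The other TFIID genes were not called. Taf10 had 130 and 103 against 98.8 and 111, and Taf8, its histone-fold partner, had 17.9 and 19.7 against 17.0 and 15.1. Taf6 had 16.6 and 18.9 against 19.8 and 22.7, a log2 fold change of -0.26 that became -0.45 after subtraction (adjusted p = 0.0453). Taf11 and Taf13, whose products pair with each other, had log2 fold changes of 0.09 and -0.18.

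Each of TFIIA and TFIIE had subunits pointing in opposite directions. Gtf2a1, the precursor of the large TFIIA subunits, had 20.8 and 27.2 scaled CPM in the libraries labelled Chd4 shRNA, against 17.3 and 17.8 with the scrambled shRNA (14.9 and 14.6 with BRM014, 12.4 and 13.5 with DMSO). Gtf2a2, the small subunit, had 24.6 and 29.8 against 32.3 and 37.0 (38.6 and 46.6 with BRM014, 38.1 and 35.5 with DMSO). Gtf2a1 was higher by a log2 fold change of 0.45 ± 0.16 (adjusted p = 0.0185), a call lost after subtraction (0.28, adjusted p = 0.259) and without Chd4 shRNA r4, scrambled r1 or scrambled r3 (adjusted p = 0.363, 0.0569 and 0.0581). Gtf2a2 had -0.35 ± 0.15 and was not called (adjusted p = 0.077).

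For TFIIE, Gtf2e2 had 36.4 and 46.3 against 61.5 and 67.0 with the scrambled shRNA (73.0 and 80.2 with BRM014, 63.5 and 63.5 with DMSO). Gtf2e1 had 23.7 and 24.8 against 18.5 and 14.4 (21.6 and 19.2 with BRM014, 16.0 and 17.3 with DMSO). Gtf2e2 was thus the lowest, and Gtf2e1 the highest, in the libraries labelled Chd4 shRNA among all 8. Gtf2e2 was lower by a log2 fold change of -0.64 ± 0.15 (adjusted p = 0.00128), with an adjusted p of 0.072 without Chd4 shRNA r1. Gtf2e1 was higher by 0.56 ± 0.15 (adjusted p = 0.00562), a call lost after subtraction (0.40, adjusted p = 0.0744) and without Chd4 shRNA r4 or scrambled r3 (adjusted p = 0.0511 and 0.123).

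TFIIF also divided. Gtf2f2, its smaller subunit, had 15.6 and 17.3 against 23.4 and 30.02 with the scrambled shRNA (25.3 and 29.2 with BRM014, 28.1 and 25.3 with DMSO). All 6 other libraries were above those labelled Chd4 shRNA, and the log2 fold change was -0.70 ± 0.16 (adjusted p = 0.00156), with an adjusted p of 0.0502 without scrambled r3. Gtf2f1, the larger subunit, had 28.2 and 31.3 against 28.0 and 25.6, with a log2 fold change of 0.15 ± 0.14. Gtf2b had 19.0 and 19.1 against 24.2 and 27.4 (19.0 and 20.6 with BRM014, 22.0 and 21.9 with DMSO). Its log2 fold change was -0.44 ± 0.15 (adjusted p = 0.0191), and the call was lost in DESeq2 (adjusted p = 0.0695) and without either Chd4 shRNA library, BRM014 r2 or scrambled r3, while after subtraction it was -0.61 (adjusted p = 0.00401).

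Of the 6 TFIIH genes 0 were called in either comparison, where 39.9% of all 8272 genes were called with the Chd4 shRNA and 7.75% with BRM014, and Gtf2h3 was read from the wider fit, where 50% and 6.36% were. At an unadjusted p under 0.05 only Gtf2h1 with BRM014 passed, and the share of all genes at that threshold was not counted. Ercc3 had 16.6 and 14.0 scaled CPM in the libraries labelled Chd4 shRNA, against 15.8 and 17.1 with the scrambled shRNA, 14.4 and 13.5 with BRM014 and 13.5 and 15.5 with DMSO. All groups lay within 1 range, with log2 fold changes of -0.11 ± 0.16 for the Chd4 shRNA (approximate interval -0.42 to 0.21) and -0.06 ± 0.13 for BRM014 (-0.33 to 0.20). The TFIIH log2 fold changes ran from -0.28 (Gtf2h4) to 0.25 (Gtf2h3) with the Chd4 shRNA, and from -0.23 (Gtf2h3) to 0.32 (Gtf2h1) with BRM014. Gtf2h5, the most transcribed of them, had 67.5 and 57.7 against 61.5 and 63.8.

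Among the TAF relatives, Taf15 changed most. It had 61.8 and 76.8 scaled CPM in the libraries labelled Chd4 shRNA, against 35.1 and 31.0 with the scrambled shRNA. The first 2 stood above the other 6, whose highest was 35.1, and the log2 fold change was 1.07 ± 0.14 (adjusted p = 4.21e-06), a 2.10-fold difference. After subtraction it was 1.26 ± 0.15 (adjusted p = 1.47e-06), and it stayed between 0.90 and 1.24 with any 1 library left out. Taf5l and Taf6l, the SAGA paralogs, had log2 fold changes of 0.01 and -0.09. Taf7l and Taf9b, with 8 to 26 and 14 to 48 counts per library, carried up to 63.4% and 63.2% of expected background in the libraries labelled Chd4 shRNA and were not tested.

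**Figure D3:**
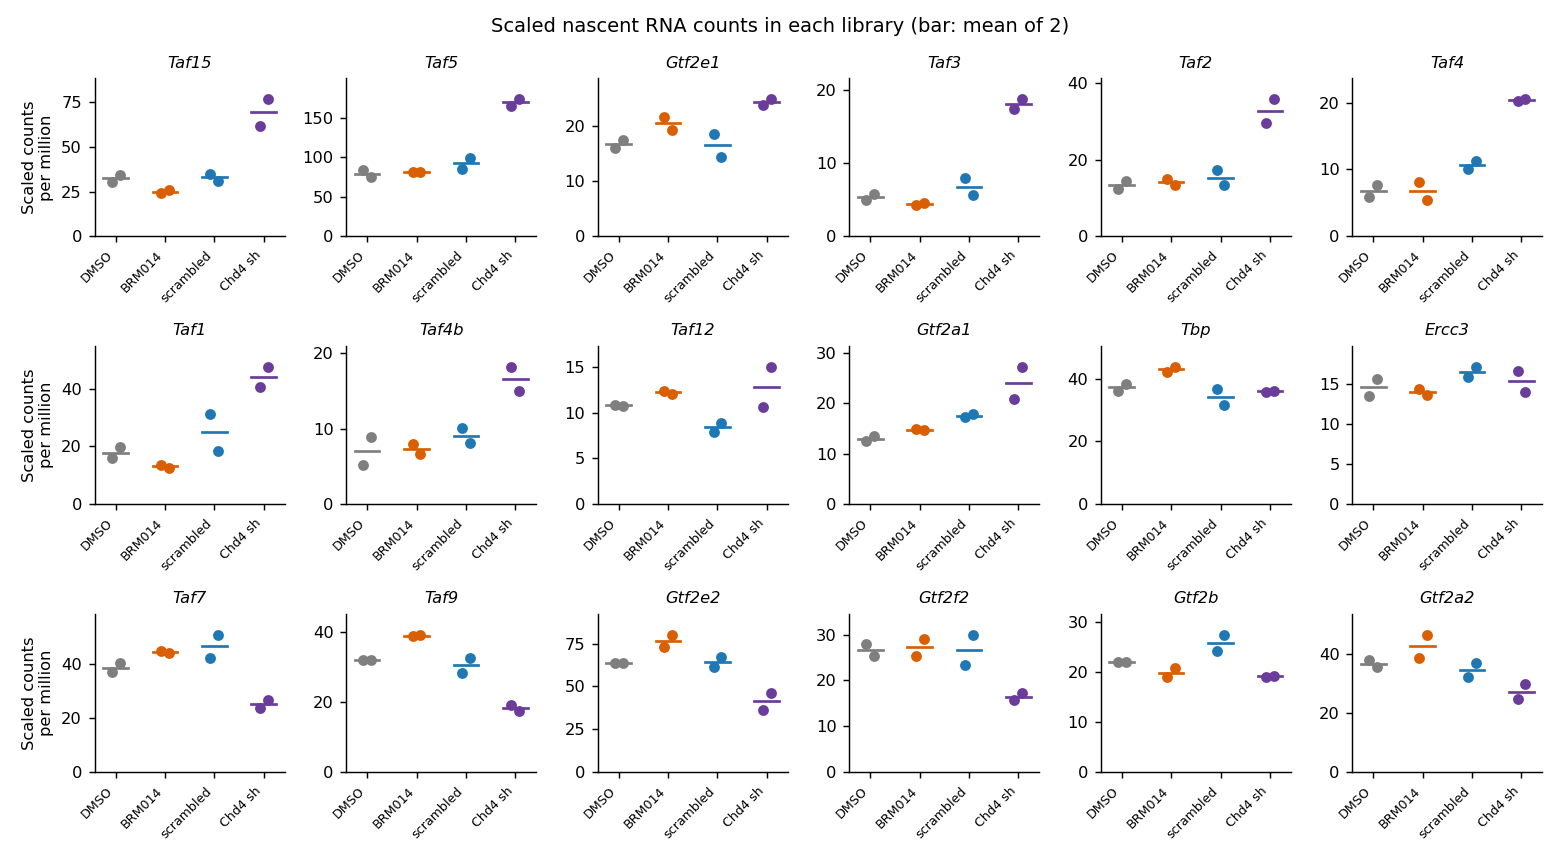
Scaled CPM in each library for 18 genes: the 15 called in the libraries labelled Chd4 shRNA, with Tbp, Ercc3 and Gtf2a2. Points are libraries and bars are means of 2, and every vertical axis starts at 0. On this scale the libraries labelled Chd4 shRNA stand above the other groups for Taf15, Taf5, Taf3, Taf2, Taf4, Taf4b, Taf1, Gtf2e1 and Gtf2a1. They stand below them for Taf7, Taf9, Gtf2e2, Gtf2f2 and Gtf2a2.

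**Figure D4:**
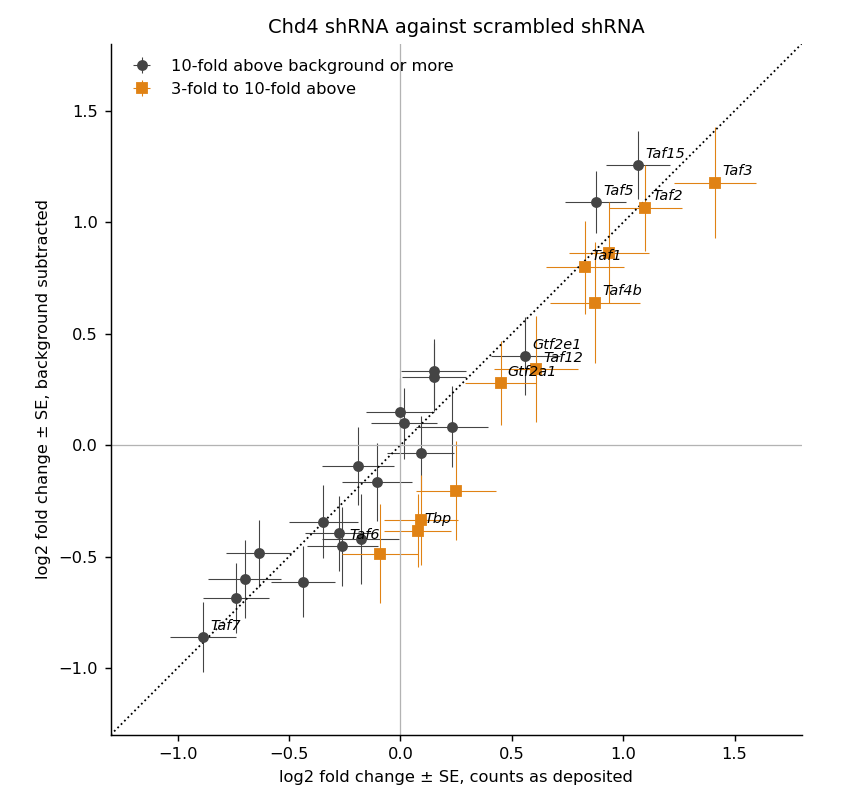
Chd4 shRNA log2 fold change before (horizontal) and after (vertical) subtracting the expected background, with SE bars, for the 31 genes fitted. The dotted line marks equal values. Taf15 and Taf5 lie above the line, and Taf3, Taf4b, Taf12 and Gtf2a1 below it. Tbp moves from 0.08 to -0.38.

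Within the 31 genes fitted, the Chd4 shRNA log2 fold change had a Spearman rank correlation of 0.53 with exonic length, 0.50 with the span of the gene and -0.50 with its level. Over the 17252 genes at least 3-fold above background that were used for these correlations, the same values were -0.05, -0.01 and -0.58. Length and level are thus both ordered with the change among these genes, and they share libraries, depth and background. With BRM014 the values were -0.27, -0.18 and 0.28.

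The difference between both effects, the Chd4 shRNA log2 fold change minus that of BRM014, was called for 7 of the 20 genes, with 30.8% of all genes called, 15.4% in either direction. With plain ERCC sums 2 were higher and 0 lower, where 16.2% of all genes were higher and 0.266% lower, so every lower difference below was lost on that scale. Taf15 differed most of the 20, since it was higher with the Chd4 shRNA and pointed lower with BRM014, by 1.44 ± 0.20 (adjusted p = 1.03e-05). Taf5 differed by 0.84 upward, and Taf7, Taf9, Gtf2e2, Gtf2f2 and Gtf2a2 by -1.09, -1.02, -0.91, -0.73 and -0.56. In the wider fit 5 of 11 were called, all upward, with 32.8% of the 17664 genes upward: Taf3, Taf1, Taf2, Taf4 and Taf4b. Of the TFIIH genes 0 were called. The treatments differ in vehicle, delivery and time, so this compares their effects as applied.

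Related genes were read from lists of other factors. Among the 29 listed genes that were fitted, 7 were called in the libraries labelled Chd4 shRNA, 5 of them higher and 2 lower, where 39.9% of all 8272 genes were called, 19.4% higher and 20.5% lower. With plain ERCC sums 13 were higher and 0 lower. The count was 0 without scrambled r3, 3 without either Chd4 shRNA library, and 12 and 13 without DMSO r1 and DMSO r2. Of the other TFIIH subunits 0 of 3 were called. Of 10 SAGA subunits outside the set, Sgf29 was higher (0.57, adjusted p = 0.0181) and Kat2a, the acetyltransferase, was lower (-0.41, adjusted p = 0.0327). Drap1, the partner of DR1 in a repressor of TBP, was higher (0.38, adjusted p = 0.0309), and it was the only gene fitted of its list.

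Of the 6 Pol I TBP-associated factors Taf1a was higher (0.65, adjusted p = 0.00685). Of 7 Pol III initiation factor genes, Gtf3c2 and Gtf3c1, subunits of TFIIIC, were higher (0.60 and 0.55) and Gtf3a, which encodes TFIIIA, was lower (-0.56). Both elongation factors of the TFIIS list that were fitted missed the threshold there, while Tcea1 was higher with BRM014 (0.48, adjusted p = 0.037), the only call of these lists with the inhibitor. That call was lost without BRM014 r1, BRM014 r2 or Chd4 shRNA r1, which left 0, and without DMSO r1, which left 1 other gene, called lower. Without DMSO r2 there were 2 calls. The list of TFII-I genes had 0 of 3 genes above the minimum.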

How the data were processed

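The members and gene lists were chosen with earlier results of these data known. The submitters' processing notes list Trim Galore 0.6.4, STAR 2.7.1a, featureCounts and edgeR 3.32.1, with the mm10 build. The strand setting and the treatment of reads with several alignments are not given in the sources used here. The deposited values are raw counts per gene and per ERCC RNA, with exonic lengths. Neither r4 of the Chd4 shRNA nor r3 of the scrambled shRNA is a number in a sample title, so both columns are known by group only. The 40 ChIP samples were not analysed here.

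Background was measured as counts per kb of exon over 1434 olfactory and vomeronasal receptor genes. Genes with a mean count at least 10-fold above it were fitted with edgeR 4.0.16 in R 4.3.3, with TMM scaling, all 8 libraries in 1 quasi-likelihood fit, no replicate block, and Benjamini-Hochberg adjustment over the 8272 genes. A gene was called at an adjusted p under 0.05. Members under 10-fold were read from a fit of genes at least 3-fold above background with the library sizes of the first fit, a choice made after seeing the data. The subtracted fits removed the expected background of each library. Effects are ± SE, approximate intervals span 2 SE on either side, and an exact permutation test of 2 against 2 libraries cannot go below 0.333. The fit of the 8272 genes was tested on simulated data for the BRM014 and Chd4 shRNA comparisons. The wider fit, the subtracted fits, the other settings and the test of the difference were not simulated.

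Members called in any comparison are given in every library, as are Tbp, Taf1 and Ercc3, and the others by range and by the highest and lowest of a complex. Up to 4 called genes per related list are named. Alternatives were RLE factors, DESeq2 1.42.0, ERCC sums or TMM-scaled ERCC totals of 92 RNAs, other filters, background subtraction, 4 libraries only, a replicate block and each library left out. All 33 symbols are in the table of gene names and 28 have a RefSeq promoter entry. Promoters were matched by symbol, and figures were drawn with matplotlib 3.10.9.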

Additional observations from a re-analysis of the deposited data

Results flagged for a closer look

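The effects of the Chd4 shRNA and of BRM014 differed for 7 of 20 genes at least 10-fold above background, where 30.8% of all genes did, and for 5 of 11 in the wider fit, all upward, where 32.8% of all genes were upward, by the test of the difference itself. In the fit of genes at least 10-fold above background, the difference in log2 fold change was 1.44 for Taf15 and 0.84 for Taf5, and -1.09 for Taf7, -1.02 for Taf9, -0.91 for Gtf2e2, -0.73 for Gtf2f2 and -0.56 for Gtf2a2. In the wider fit it was 1.69 for Taf3, 1.29 for Taf1, 1.04 for Taf2, 0.97 for Taf4 and 0.85 for Taf4b. After background subtraction Gtf2a2 (adjusted p = 0.0529) and Taf4b (adjusted p = 0.239) were no longer called. Taf13 (-0.66, adjusted p = 0.0493) and Tbp (-0.61, adjusted p = 0.0402) were then called lower. They were also called lower with no filter, the default filter and the 3-fold filter, and not with the other settings. Those 3 filters placed the median expressed gene of the difference at -1.55, -1.40 and -0.42. A lower call there therefore does not set these genes apart from the typical expressed gene. With plain ERCC sums all 5 lower differences were lost. Without DMSO r2 the value for Taf4b was 0.40 (adjusted p = 0.247), and its call was also lost without BRM014 r2, Chd4 shRNA r1 or scrambled r3. Without BRM014 r2 the value for Taf4 was 0.69 (adjusted p = 0.0559). In DESeq2 the differences of Gtf2a2, Taf2, Taf4 and Taf4b were not called, where for the last 3 its size factors placed the median expressed gene at -0.40. Gtf2f2 lost its call without BRM014 r2, Chd4 shRNA r1 or scrambled r3 (adjusted p = 0.0845, 0.0945 and 0.105), as did Gtf2a2 (adjusted p = 0.264, 0.259 and 0.171).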

How the results depend on the processing

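Counts of calls depended on scaling and filter. With RLE factors and after background subtraction, the members' counts were 0, 8 and 7 for BRM014, the Chd4 shRNA and their difference, and on 4 libraries only 0 and 8 for the first 2. At 3-fold above background they were 0, 8 and 7 with the library sizes of the first fit and 0, 15 and 11 with sizes estimated again, and for the other settings the cause was not tested. With plain ERCC sums they were 0, 4 and 2, and with TMM-scaled ERCC totals 0, 0 and 0. With no filter on low counts they were 0, 20 and 19, and with the default filter of edgeR 0, 19 and 19. Leaving out 1 library gave 0 to 1, 5 to 9 and 5 to 8. The median expressed gene shifted in the Chd4 shRNA comparison by -1.49 with no filter, -1.34 with the default filter, -0.39 at 3-fold, 0.59 with plain ERCC sums and 0.19 with TMM-scaled ERCC totals, and in the BRM014 comparison by 0.14 with the last.

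Over all expressed genes, 641 calls with BRM014 became 297 with DESeq2, 104 with plain ERCC sums, 0 with TMM-scaled ERCC totals, 984 with the default filter, 1266 at 3-fold, 1123 at 3-fold with the sizes of the first fit, 257 at 30-fold, and 227 to 1391 with 1 library left out. The 3301 calls with the Chd4 shRNA (1607 higher, 1694 lower) became 2836 higher and 62 lower with plain ERCC sums, 63 with TMM-scaled ERCC totals, 20618 with no filter, 22627 with the default filter, 7950 and 8829 at 3-fold, 1719 at 30-fold, and 2176 to 3819 with 1 library left out. The 2545 calls of the difference became 1363 with plain ERCC sums (1341 higher, 22 lower), 24 with TMM-scaled ERCC totals, 15038 with no filter, 16290 with the default filter, 6581 and 7162 at 3-fold, 1384 at 30-fold, and 1613 to 2966 with 1 library left out.

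In the related lists, the 1 call with BRM014 became 0 with DESeq2, either ERCC scale, 30-fold or subtraction, and 0 to 2 with 1 library left out. The 7 calls with the Chd4 shRNA became 13 and 0 on the ERCC scales, 29 with no filter and with the default filter, 14 at 3-fold, 3 at 30-fold, and 0 to 13 with 1 library left out. The 5 calls of the difference became 3 with DESeq2, 3 and 0 on the ERCC scales, 29 with no filter and with the default filter, 9 at 3-fold, 2 at 30-fold, 8 with the crossed block, and 1 to 8 with 1 library left out. The median ratio of the members' levels was 1.02 with BRM014, and 0.942 to 1.12 with 1 library left out. It was 1.07 with the Chd4 shRNA, 1.67 with plain ERCC sums, 0.976 after subtraction, and 1.04 to 1.09 with 1 library left out.

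BRM014 and DMSO libraries share replicate numbers, but nothing says that a number marks a shared culture or day, and same-numbered libraries deviated in opposite directions (correlation -0.276 over 6979 genes). With the replicate block 754 genes and 0 members were called with BRM014, and with the crossed pairing, added after seeing the data, 827 genes and 0 members. No paired analysis was possible because the Chd4 shRNA and scrambled columns share only 1 number. No value of a named gene relative to the median expressed gene changed its called direction. With 2 libraries in a group, SEs of the Chd4 shRNA effects ran from 0.14 (Taf5) to 0.20 (Taf4b). Log2 differences under about 2 SE were not called, and larger ones were not always called. Gtf2a2, for example, missed the threshold at -0.35 ± 0.15 (edgeR adjusted p = 0.077).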
